A study of Mus musculus with 40 samples.

Results

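The growth hormone (GH), STAT5 and IGF axis was followed in liver through 10 genes chosen by name, Ghr, Stat5a, Stat5b, Cish, Socs2, Bcl6, Cux2, Igf1, Igfals and Igfbp3, out of 40594 genes counted in both genotypes. All 10 were found in the count tables, and all 10 were among the 12942 genes that passed the filter on low counts. Poly-A RNA was sequenced from the livers of 40 male mice aged 5 months, strain C57BL6/J, in 8 groups of 5. Wild-type (WT) mice were C57BL6/J animals from a supplier, and knockout (KO) mice were PPARγ-loxP mice crossed to Alb-Cre, a transgene that expresses Cre recombinase from the albumin promoter, so that deletion is directed to hepatocytes. The WT mice were not floxed littermates of the KO mice. In each genotype 1 group ate a low-fat control diet (control), 1 the control diet with pioglitazone (Pio), a thiazolidinedione agonist of PPARγ, 1 a high-fat diet (HFD), and 1 the HFD with Pio (HFD-Pio). The comparisons asked whether Pio and HFD changed these genes, whether diet changed the effect of Pio, and whether the effects depended on hepatocyte PPARγ.

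GH reaches the liver in pulses and binds its receptor Ghr, which activates the kinase JAK2 and the transcription factors STAT5A and STAT5B. STAT5 induces Igf1, Igfals, Socs2 and Cish, and the SOCS-family proteins encoded by the last pair feed back on the receptor. Male and female livers see different GH pulse patterns, and Bcl6 and Cux2 encode repressors that take part in the resulting sex differences in hepatic gene expression.

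The libraries held 15788242 to 49857017 counts in WT mice and 21542958 to 28334251 in KO mice. Each genotype had its own count table, and in a level compared between WT and KO the genotype cannot be told apart from the table. Pparg itself ranged from 5.79 to 14.2 CPM (TMM-normalised counts scaled to library size) in WT and from 3.01 to 9.90 CPM in KO mice, and the total over the gene does not show which exons were deleted. One library stood apart: in the liver of KO Pio mouse 13, Alb was at 10663 CPM against 45240 to 109384 in the other 39, the summed level of 9 hepatocyte markers was 35064 CPM against 76027 to 153467, and 12 immediate early genes summed to 3184 CPM against 220.1 to 1684. Whether that liver or library is as labelled could not be settled from the tables. Results are therefore given with all 40 mice and without mouse 13. In whole liver, fewer cells of a type and less RNA per cell cannot be told apart.

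Promoter sequence is shown for the members that hold the STAT recognition motif TTCNNNGAA, which reads the same on both strands, because Cish and Bcl6 are among the 3 members that varied most between mice. Windows of 300 bases (250 before and 50 after a start site, RefSeq, GRCm38.p6) were found for 9 of the 10 genes, all but Socs2. The motif was present in 8.3% of all 32851 windows and in at least 1 window of 9.55% of all 27025 genes. Among the members it was found in Bcl6, Cish and Igfals, 3 of 9. The internal start site of Bcl6 had 3 copies, beginning 168, 122 and 88 bases before the start, a number reached in 11 of the 32851 windows (0.0335%). A further copy, within the 29 bases at chr16:23988952-23988980 on the minus strand, lay 118 bases before the upstream start site of Bcl6. The 250 bases before the internal start, at chr16:23981284-23981533 on the minus strand, and this further copy are given 5′ to 3′ with the motifs in capitals.
Bcl6, internal start: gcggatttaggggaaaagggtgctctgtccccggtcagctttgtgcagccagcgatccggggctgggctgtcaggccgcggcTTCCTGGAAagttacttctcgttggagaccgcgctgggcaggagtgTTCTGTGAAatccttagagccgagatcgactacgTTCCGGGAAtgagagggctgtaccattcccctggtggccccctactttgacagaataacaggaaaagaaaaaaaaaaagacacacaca
Bcl6, upstream start: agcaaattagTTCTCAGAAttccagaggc
The Cish window had 2 copies at the start site itself, at bases 1 and 12 of the transcript, and at least 2 copies occurred in 0.457% of windows. These 29-base stretches, at chr9:107296649-107296677 and chr9:107296660-107296688 on the plus strand, share their central bases.
Cish, first copy: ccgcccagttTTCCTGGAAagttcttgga
Cish, second copy: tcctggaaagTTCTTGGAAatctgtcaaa
Igfals had 1 copy 58 bases before one start site and another 236 bases before a start site further upstream. They lay within the 29-base stretches at chr17:24878163-24878191 and chr17:24877598-24877626 on the plus strand.
Igfals, near copy: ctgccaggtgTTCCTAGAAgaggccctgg
Igfals, far copy: gatctataatTTCTCAGAAaagaggctga
A match describes letters in these windows only, and binding was not measured here.

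Expressed per length (RPKM, from TMM-normalised CPM and the exon length), Igf1 and Ghr were the most abundant members. In WT mice the median was 45.2 RPKM for Igf1 (range 32.9 to 66.2), 42.8 for Ghr (23.5 to 53.7) and 28.1 for Igfals (9.58 to 49.6, n = 20). The ranges of these 3 genes overlapped. Stat5b followed with a median of 13.4 RPKM (8.12 to 16.8), above the whole WT range of Stat5a (2.46 to 6.98, median 3.76). Bcl6, Igfbp3 and Cish had medians of 6.41, 5.11 and 4.12 RPKM with overlapping ranges, Socs2 of 1.17 RPKM, and Cux2 of 0.0643 RPKM, with 3 to 38 counts per WT mouse. In the 19 KO mice other than mouse 13, medians were 70.6 RPKM for Ghr, 67.7 for Igf1, 29.7 for Igfals, 13.4 for Stat5b, 12.4 for Bcl6, 4.83 for Igfbp3, 1.77 for Stat5a, 0.734 for Socs2, 0.683 for Cish and 0.0760 for Cux2. By these medians Cish stood above Stat5a and Socs2 in WT livers and below both in KO livers, and no test was made of a difference confounded with the table.

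**Figure D1:**
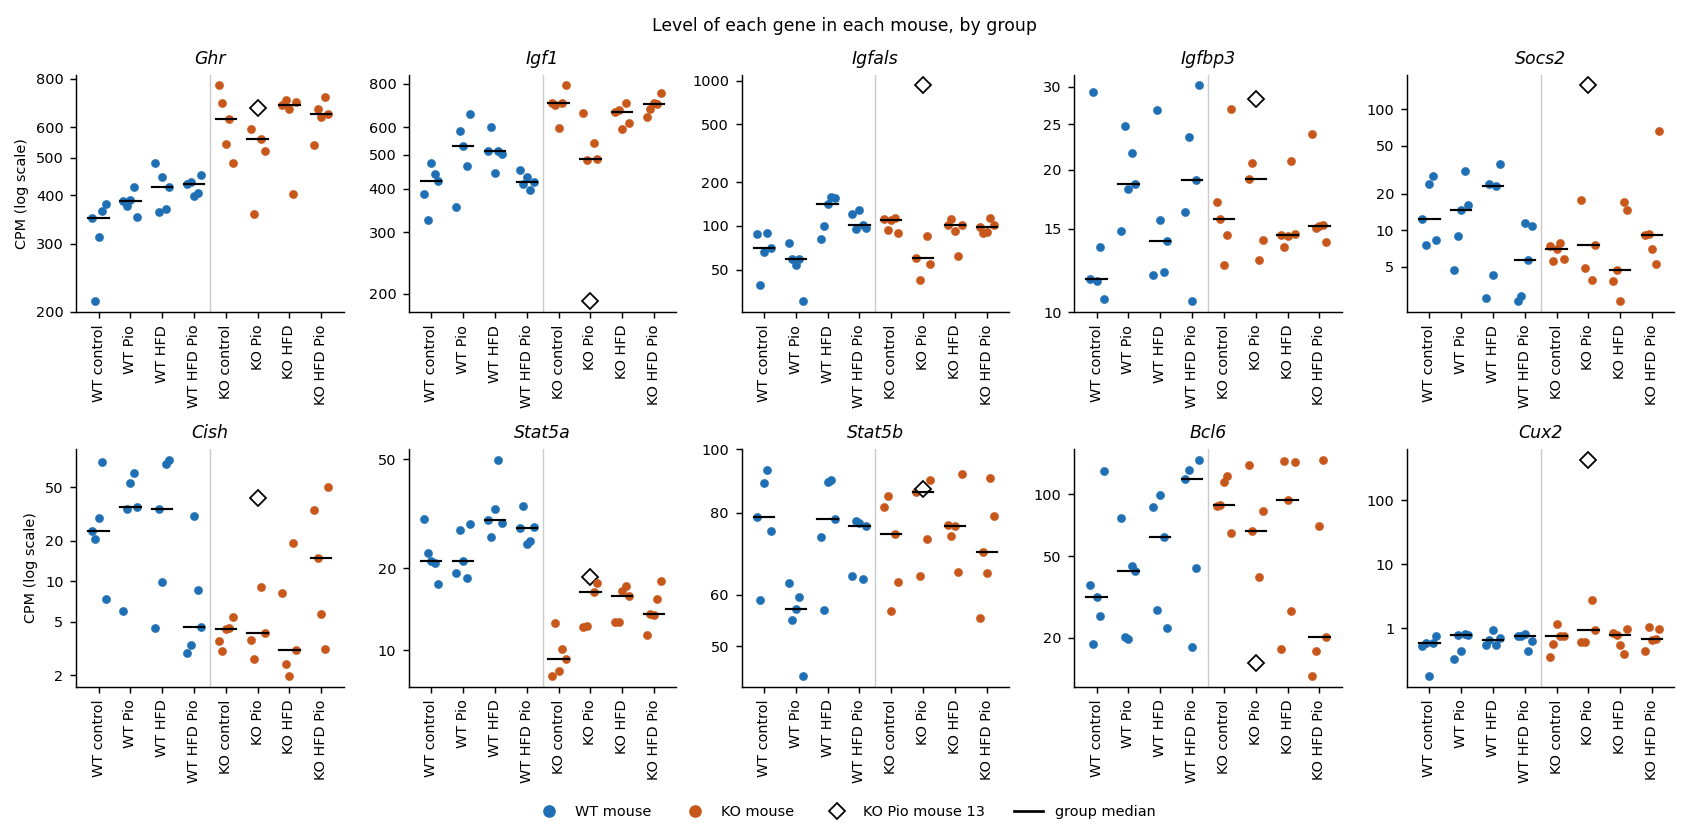
Level of each of the 10 genes in CPM (log axis, a separate scale for each gene) in every mouse, by group, with blue points for WT, orange points for KO, a white diamond for KO Pio mouse 13 and a line at each group's median. Cish, Socs2 and Bcl6 spread widely within groups, and mouse 13 lies outside all other mice for Igf1 (190.4 CPM), Igfals (927), Socs2 (157) and Cux2 (420.1).

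Few members passed the test, an adjusted p of at most 0.05 in edgeR's quasi-likelihood test over all genes. For Pio on control diet in WT mice 1 of 10 was called (Stat5b), where 3.91% of all genes were called. Without mouse 13, which also left Cux2 under the filter, 2 of 9 were called (Stat5b and Igf1) against 15.6% of all genes. For HFD without Pio in WT mice, edgeR called 0 of 10 with all mice, against 1.31% of all genes, 2 members had an unadjusted p under 0.05, DESeq2 called 1 and limma with sample weights 0. DESeq2 gave no adjusted p for Igfals or Cux2, so its counts here and below could include neither. Without mouse 13 edgeR called 2 of 9 (Igfals and Stat5a), against 6.55%. For HFD with Pio in WT mice it called 0 of 10 (1.22% of all genes, 2 members under an unadjusted 0.05, DESeq2 0, limma 3) and, without mouse 13, 1 of 9 (Igfals, 8.68% of all genes). For Pio on HFD in WT mice no member was called by edgeR with or without mouse 13 (1.08% and 11.6% of all genes), nor by DESeq2 or limma, and 1 and 3 members had an unadjusted p under 0.05. In most of these WT comparisons the members' share came from 1 or 2 genes, so it says little beside the share over all genes.

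In KO mice, Pio on control diet called 3 of 10 members with all mice (Igf1, Stat5a and Cux2, against 9.01% of all genes) and 0 of 9 without mouse 13 (0.512% of all genes, with 3 members at an unadjusted p under 0.05). HFD with Pio called 1 of 10 (Cux2, 4.96% of all genes) and 0 of 9 without mouse 13 (0.0931%, with 4 members under an unadjusted 0.05). Every call within KO mice was thus lost without mouse 13. Pio on HFD called 0 members by edgeR, DESeq2 and limma (0.0155% of all genes with all mice and 0% without mouse 13), and 0 had an unadjusted p under 0.05. HFD without Pio called 0 by edgeR, 0 by DESeq2 and 1 by limma (0.185% and 0.388% of all genes), with 1 member, Stat5a, at an unadjusted p under 0.05.

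The interaction terms gave few calls. The effect of Pio on control diet differed between KO and WT for 3 of 10 members (Igf1, Stat5b and Cux2, 7.87% of all genes) and for 1 of 9 without mouse 13 (Igf1, 5.78%). The effect of Pio differed between diets in WT mice for 0 of 10 members by edgeR (0.0773% of all genes, 2 members under an unadjusted 0.05, DESeq2 0, limma 1) and for 1 of 9 without mouse 13 (Igf1, 5.25%). In KO mice the same term called 0 (0% of all genes with and without mouse 13, 3 members under an unadjusted 0.05 in each, DESeq2 0, limma 1). The KO minus WT difference called 0 members by edgeR for Pio on HFD (0.0927% and 0.163% of all genes), for HFD without Pio (0.0618% and 1.05%) and for HFD with Pio (0.0155% and 0.00775%). DESeq2 also called 0 in these 3 terms, limma called 0, 0 and 2, and with all mice 2, 0 and 5 members had an unadjusted p under 0.05.

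Ghr, the receptor (chr15:3317760-3583492, minus strand, GRCm38), was steady within WT groups. Its level was 350.3, 213, 313, 365 and 379 CPM in the control mice, 386, 376, 389, 419.6 and 351 with Pio, 486, 362, 446, 369 and 419.6 on HFD, and 429, 434, 398, 406 and 453 on HFD-Pio. The groups overlapped, and control mouse 832 was the lowest of the 20. With HFD the log2 fold change was 0.36 ± 0.16 (SE, edgeR adjusted p = 0.31) and with Pio on control diet 0.25 ± 0.16 (adjusted p = 0.46), and neither passed the test. KO mice ranged from 358 to 770.4 CPM, with group means of 625 ± 114 (SD, n = 5) in control, 541 ± 116 with Pio, 632 ± 128 on HFD and 643 ± 66.0 on HFD-Pio, and no comparison within KO passed the test. The lowest KO values were those of Pio mouse 12 (358 CPM) and HFD mouse 9 (403 CPM), the latter apart from its 4 group mates at 669 to 705 CPM.

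Stat5b (chr11:100780731-100850724, minus strand), the main STAT5 of male liver, fell with Pio in the WT groups without HFD. It was at 78.9, 58.9, 88.9, 93.0 and 74.9 CPM in control mice and at 62.5, 54.9, 57.1, 59.4 and 45.0 CPM with Pio. Only control mouse 832 and Pio mice 841 and 844 overlapped. The log2 fold change was -0.50 ± 0.15 (edgeR adjusted p = 0.0447) and -0.49 ± 0.14 without mouse 13 (adjusted p = 0.0136), and an exact two-sided permutation test on log2 CPM gave p = 0.0238 unadjusted, one of 80 such tests over 10 genes and 8 comparisons. The call was close to the threshold. It was lost, at adjusted p of 0.0513 to 0.150, when WT control mouse 831, 833, 834 or 835, WT Pio mouse 842, 843, 844 or 845, KO control mouse 4, KO HFD mouse 6 or 8, or KO HFD-Pio mouse 17 was left out, while the fold change stayed between -0.59 and -0.43. In the same comparison the 15 core clock genes summed to 392 to 739 CPM in control mice and 798 to 1228 CPM with Pio, without overlap, and their part in the result was not tested. The 7 adipocyte markers summed to 12.1 to 64.3 CPM and 186 to 612 CPM. That difference lay in Cfd, Cidea, Lpl and Retn, while the defining adipocyte genes Adipoq, Lep and Plin1 were at 0 to 0.131 CPM in both groups.

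On HFD, Stat5b was at 73.3, 56.9, 89.1, 89.8 and 78.2 CPM without Pio and 64.1, 77.8, 77.3, 63.3 and 76.2 CPM with Pio in WT mice. These groups overlapped throughout, and the Pio effect was -0.11 ± 0.15 (adjusted p = 0.77). Every WT HFD-Pio mouse was above every WT Pio mouse for Stat5b, as groups were without overlap for 6.49% of all genes in that comparison, and the log2 difference of 0.36 ± 0.15 did not pass the test (adjusted p = 0.23). In KO mice Stat5b ranged from 55.2 to 91.5 CPM in all 4 groups, and Pio on control diet gave 0.15 ± 0.15 (adjusted p = 0.51). The KO minus WT difference in the Pio effect on control diet was 0.65 ± 0.21 on the log2 scale (adjusted p = 0.047). It missed the threshold without mouse 13 (0.63 ± 0.20, adjusted p = 0.0545) and when any of 18 other mice was left out, at adjusted p of at most 0.0859.

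Stat5a (chr11:100859351-100885169, plus strand) is the neighbouring paralogue, and its exons overlap those of Stat3 on the other strand, where reads cannot be assigned with certainty. Its level in WT mice was 30.3, 22.7, 21.3, 20.8 and 17.6 CPM in control, 19.3, 27.7, 21.2, 18.4 and 29.0 with Pio, 30.1, 26.0, 32.9, 49.8 and 29.2 on HFD, and 28.0, 33.9, 24.5, 25.2 and 28.4 on HFD-Pio. Control mouse 831 alone lay within the HFD range. With HFD the log2 fold change was 0.58 ± 0.18, which missed the threshold with all mice (edgeR adjusted p = 0.0903) and passed it without mouse 13 (0.56 ± 0.17, adjusted p = 0.0373) or without WT control mouse 831 (0.68, adjusted p = 0.0330). DESeq2 called it with all mice (0.58, adjusted p = 0.0496). HFD mouse 829 was the highest, and leaving it out gave 0.39 (adjusted p = 0.33).

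In KO mice Stat5a was at 8.05, 12.6, 8.39, 10.1 and 9.30 CPM in control, 12.2, 12.3, 18.5, 16.4 and 17.6 with Pio, 12.7, 12.6, 16.5, 17.3 and 15.8 on HFD, and 11.3, 13.6, 13.5, 15.4 and 18.0 on HFD-Pio. The control group was the lowest of the 4. Every KO HFD mouse was above every KO control mouse, which held for 3.04% of all genes, and the nearest pair, HFD mouse 7 and control mouse 2, were both at 12.6 or 12.7 CPM when rounded. That difference was 0.63 ± 0.18 on the log2 scale and did not pass edgeR's test (adjusted p = 0.27), while limma with sample weights called it (0.56, adjusted p = 0.0103). Pio on control diet gave 0.67 ± 0.18 with all mice (adjusted p = 0.0232), a call lost without KO control mouse 1, 3 or 4 or Pio mouse 13 (adjusted p of 0.052 to 0.115). Without mouse 13 it was 0.61 ± 0.18.

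**Figure D2:**
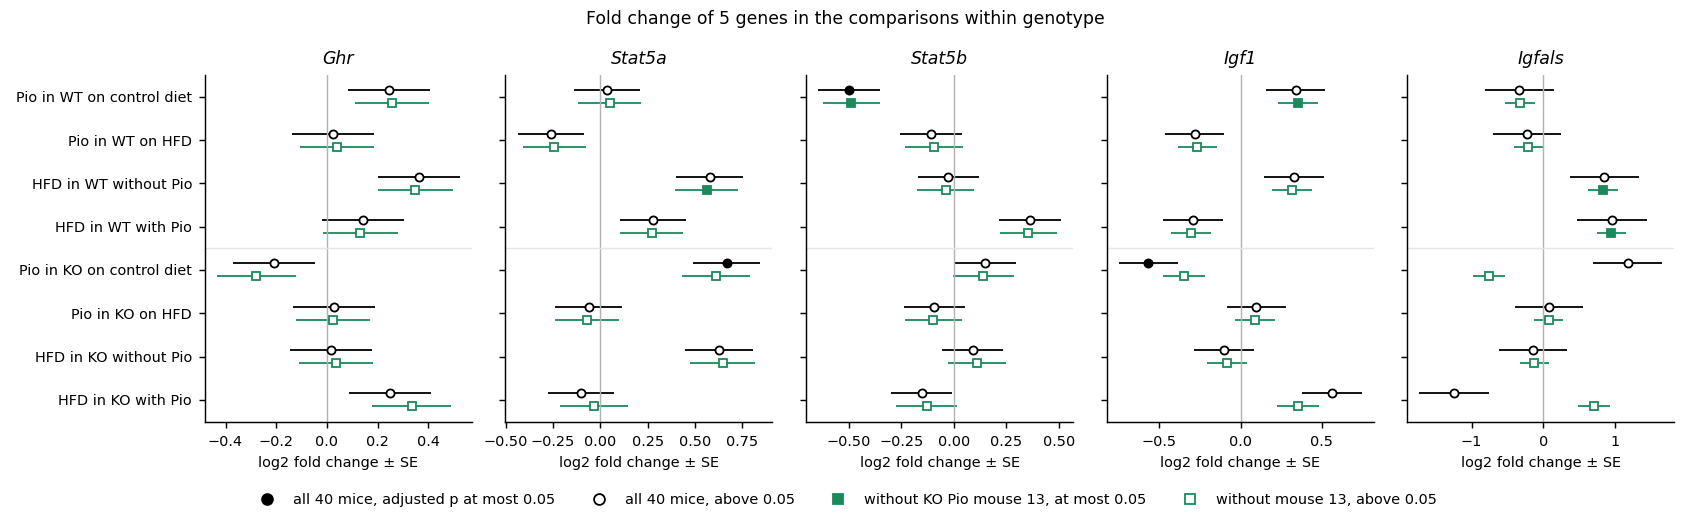
Log2 fold change with its SE (horizontal axes, a separate scale for each gene) of Ghr, Stat5a, Stat5b, Igf1 and Igfals in the 8 comparisons within genotype, with black circles for all 40 mice, green squares without KO Pio mouse 13, and filled symbols for an adjusted p of at most 0.05. Igfals in KO mice on control diet moves from 1.17 to -0.76 when mouse 13 is left out, while the WT fold changes of all 5 genes stay nearly the same.

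Cish (chr9:107296026-107302784, plus strand) and Socs2 (chr10:95385362-95417180, minus strand) encode the feedback inhibitors, and Bcl6 (chr16:23965052-23988852, minus strand) a repressor that opposes STAT5. They varied more between mice of the same group than almost any other gene. In WT mice the within-group SD on the log2 CPM scale was 1.45 for Cish, 1.17 for Socs2 and 1.06 for Bcl6, against a median of 0.315 over all genes, at the percentiles 99.8, 99.3 and 99.0 of all genes. In KO mice without mouse 13 it was 1.17, 1.06 and 1.13, against a median of 0.193, at the percentiles 99.4, 99.1 and 99.3. Their spread was as extreme among the 500 genes closest in level, where each stood at percentile 99.2 or above in both genotypes. Igf1, in contrast, had an SD of 0.216 in WT and 0.137 in KO mice, below the median gene in each, and Ghr of 0.201 and 0.281.

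**Figure D3:**
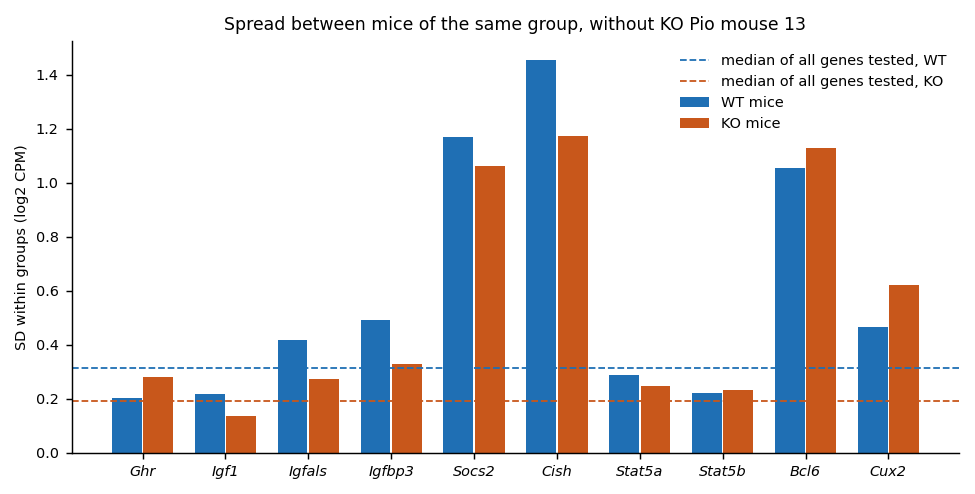
Within-group SD of log2 CPM (vertical axis) of the 10 genes in WT (blue bars, 20 mice) and KO livers (orange bars, 19 mice, without mouse 13), with dashed lines at the median of all genes tested in each genotype. Cish, Socs2 and Bcl6 have SDs of 1.06 to 1.45, against medians of 0.315 in WT and 0.193 in KO mice.

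Cish was at 23.6, 20.6, 29.2, 76.5 and 7.38 CPM in WT control mice, 5.96, 34.3, 53.4, 63.6 and 35.4 with Pio, 4.49, 34.3, 9.92, 74.7 and 79.5 on HFD, and 2.93, 3.35, 30.3, 8.66 and 4.55 on HFD-Pio. Each WT group spanned at least a 10.3-fold range. In KO mice it was at 3.57, 3.01, 4.39, 4.48 and 5.44 CPM in control, 3.67, 2.66, 41.4, 9.05 and 4.14 with Pio, 8.22, 2.44, 1.98, 19.3 and 3.10 on HFD, and 34.0, 14.9, 5.67, 3.13 and 49.9 on HFD-Pio. The KO control group alone was tight, at 3.01 to 5.44 CPM. Gm17040 and Gm17041 on the other strand overlap exons of Cish, and reads there cannot be assigned with certainty, since the use of strand in counting is not given in the sources used here.

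Socs2 followed a like pattern in WT mice. It was at 12.5, 7.60, 24.2, 28.2 and 8.30 CPM in control, 4.72, 9.02, 14.8, 30.6 and 16.3 with Pio, 2.75, 24.2, 4.28, 23.4 and 35.1 on HFD, and 2.62, 2.85, 11.4, 5.68 and 10.8 on HFD-Pio. The mice with the lowest Cish in the Pio, HFD and HFD-Pio groups, 841, 826 and 836, also had the lowest Socs2 of their groups. KO values were 7.46, 5.63, 7.00, 7.93 and 5.78 CPM in control, 17.6, 4.88, 157, 3.90 and 7.60 with Pio, 3.82, 4.69, 2.60, 17.1 and 14.8 on HFD, and 9.19, 9.41, 6.96, 5.23 and 66.3 on HFD-Pio. Apart from mouse 13, HFD-Pio mouse 20 had the highest KO value of both Socs2 and Cish.

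Bcl6 was at 36.3, 18.7, 31.5, 25.5 and 129 CPM in WT control mice, 76.4, 20.3, 19.8, 44.7 and 42.3 with Pio, 86.8, 27.3, 98.8, 61.9 and 22.5 on HFD, and 118, 131, 18.0, 43.6 and 146 on HFD-Pio. The mouse with the least Cish in WT control, 835, had the most Bcl6, and in HFD-Pio mouse 838 had the most Cish and the least Bcl6. In KO mice Bcl6 was at 87.2, 88.1, 114, 122 and 64.5 CPM in control, 139, 66.1, 15.2, 39.7 and 83.1 with Pio, 17.7, 144, 93.2, 27.0 and 144 on HFD, and 13.1, 17.4, 69.6, 146 and 20.2 on HFD-Pio. An exon of the opposite-strand gene Gm37419 overlaps Bcl6.

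After each mouse was centred on its group mean of log2 CPM, Cish and Bcl6 went in opposite directions in both genotypes. This relation was chosen after the values were seen, as were the other 5 of the family, and values were permuted within groups. For Cish and Bcl6, Pearson's r was -0.76 in the 20 WT mice (permutation p = 0.00052, adjusted over the 6 relations 0.0016) with Spearman's rho of -0.74 (p = 0.0015), and r was -0.84 in 19 KO mice (p = 0.0026, adjusted 0.0053) with rho of -0.84 (p = 0.0031). Without the 2 mice farthest from the median Cish value, r was -0.75 and -0.77. Cish and Socs2 rose and fell together in WT mice (r = 0.87, permutation p = 5e-05, adjusted 0.0003, rho = 0.90, p = 5e-05, and r = 0.81 without the farthest 2). In KO mice that relation did not pass the threshold (r = 0.55, permutation p = 0.08, adjusted 0.096, rho = 0.42, p = 0.14, and r = 0.39 without the farthest 2). Socs2 and Bcl6 gave r = -0.52 in WT mice (permutation p = 0.031, adjusted 0.047, rho = -0.54, p = 0.03, and -0.44 without the farthest 2) and r = -0.12 in KO mice (permutation p = 0.74, rho = -0.08, p = 0.81, and 0.16 without the farthest 2).

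**Figure D4:**
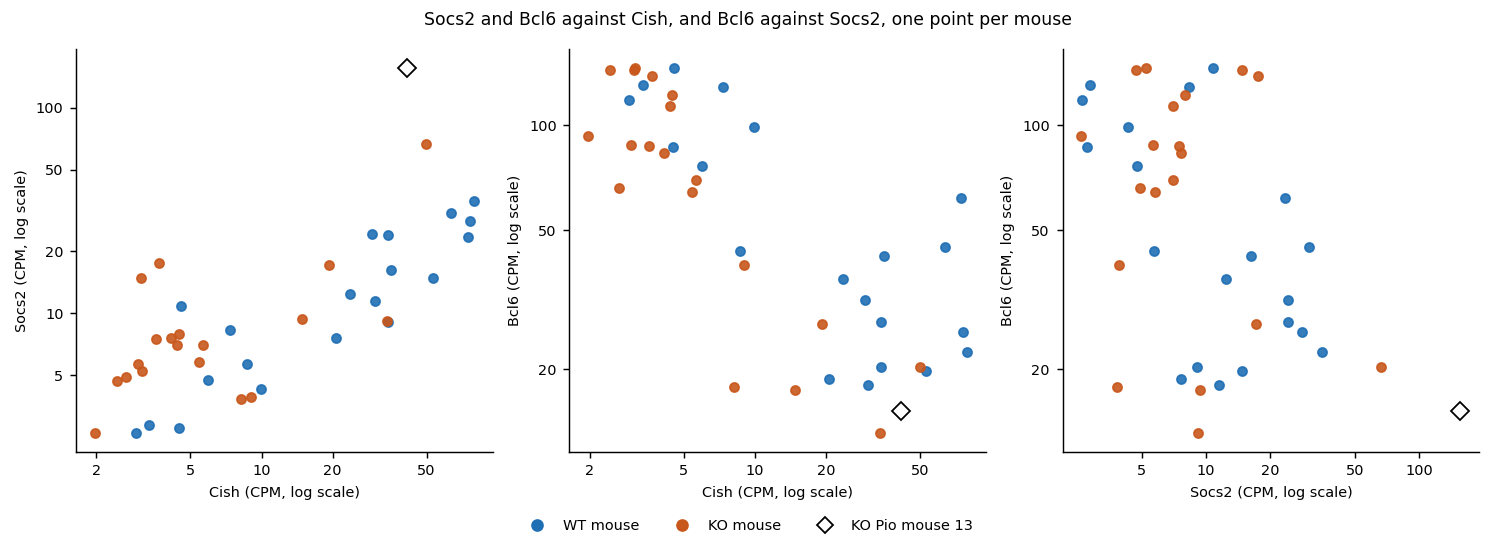
Levels in CPM (log axes) of Socs2 against Cish, Bcl6 against Cish and Bcl6 against Socs2, with a point for each WT mouse (blue) and KO mouse (orange) and a white diamond for KO Pio mouse 13. Bcl6 falls as Cish rises, with r of -0.76 in WT and -0.84 in KO mice after centring on group means, which the plotted levels are not.

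Against that spread, no treatment comparison of Cish, Socs2 or Bcl6 passed edgeR's test with all 40 mice or without mouse 13. The largest log2 fold changes in WT mice were those of Cish with Pio on HFD (-2.05 ± 0.84, edgeR adjusted p = 0.22) and with HFD in the presence of Pio (-1.98 ± 0.84, adjusted p = 0.25). Without mouse 13 these were -2.06 ± 0.80 (adjusted p = 0.0866) and -2.01 ± 0.80 (adjusted p = 0.10). Limma with sample weights called the second of these (-2.83, adjusted p = 0.00926), and DESeq2 did not (adjusted p = 0.18). In KO mice Pio on HFD gave 1.62 ± 0.83 for Cish (adjusted p = 1), the opposite direction. The KO minus WT difference of 3.67 ± 1.18 did not pass the test with all mice (adjusted p = 0.53) or without mouse 13 (3.66 ± 1.13, adjusted p = 0.14). Socs2 moved the same ways on HFD, by -1.44 ± 0.82 in WT and 1.18 ± 0.81 in KO mice, with neither past the threshold. The KO value rested on HFD-Pio mouse 20 and was -0.16 without it, and the KO minus WT difference fell from 2.62 to 1.28. Its log2 fold change of 2.50 ± 0.84 with Pio in KO mice on control diet (adjusted p = 0.0537) came from mouse 13 and was 0.35 ± 0.73 without it. It passed the test, at adjusted p of 0.0203 to 0.0421, when KO Pio mouse 11, 12, 14 or 15 or KO HFD-Pio mouse 20 was left out instead, and with mouse 13 kept it was called by DESeq2 (2.54, adjusted p = 0.0227) and with RLE scaling (2.54, adjusted p = 0.0483) but not by limma with sample weights (0.19, adjusted p = 0.90).

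Igf1 (chr10:87858265-87937042, plus strand), the circulating growth factor that GH induces in liver, was at 387, 326, 473, 441 and 420.4 CPM in WT control mice, 355, 583, 529, 465 and 656 with Pio, 513, 599, 442, 513 and 503 on HFD, and 452, 412, 432, 397 and 419 on HFD-Pio. Pio and HFD given singly put the group medians at 529 and 513 CPM, and HFD-Pio mice had a median of 419 CPM, near the 420.4 CPM of controls. HFD alone gave a log2 fold change of 0.33 ± 0.18 (edgeR adjusted p = 0.45), and 0.31 ± 0.12 without mouse 13 (adjusted p = 0.11), and did not pass the test. With Pio on control diet the log2 fold change was 0.34 ± 0.18 with all mice (edgeR adjusted p = 0.33) and 0.35 ± 0.12 without mouse 13 (adjusted p = 0.0444), where Igf1 rose. Neither limma with sample weights nor each genotype fitted alone called this rise. On HFD the Pio effect was -0.28 ± 0.18 (adjusted p = 0.47), and -0.27 ± 0.12 without mouse 13 (adjusted p = 0.15). The difference between the diets, -0.62 ± 0.26 with all mice (adjusted p = 0.31), passed the test without mouse 13 (-0.62 ± 0.17, adjusted p = 0.0334) and, with all mice, in limma with sample weights (-0.52, adjusted p = 0.018).

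In KO mice Igf1 was at 705, 693, 596, 704 and 791 CPM in control, 657, 483, 190.4, 539.8 and 485 with Pio, 663, 670.3, 592, 706 and 619 on HFD, and 643, 676, 706, 699 and 753 on HFD-Pio. The Pio group on control diet was the lowest of the 4, also without mouse 13 (mean 541 ± 81.6, n = 4, against 698 ± 68.9, n = 5, in control), and mouse 11 overlapped the controls. The fall by 0.57 ± 0.18 on the log2 scale was called with all mice (adjusted p = 0.0445). It was -0.35 ± 0.13 without mouse 13 (adjusted p = 0.26), and the call was also lost without any 1 of the 5 KO control mice, KO HFD mouse 6, KO HFD-Pio mouse 17, 18 or 19, WT Pio mouse 843 or WT HFD-Pio mouse 837 or 839, at adjusted p of at least 0.050. HFD in the presence of Pio gave 0.56 ± 0.18 (adjusted p = 0.0591), called when KO Pio mouse 11, 12, 14 or 15 was left out (adjusted p of 0.0124 to 0.0477) and not without mouse 13 (0.35 ± 0.13, adjusted p = 0.55). With all mice, DESeq2 (0.55, adjusted p = 0.0336) and limma with sample weights (0.36, adjusted p = 0.0107) also called it. The KO minus WT difference in the Pio effect on control diet was called with all mice (-0.91 ± 0.26, adjusted p = 0.0282) and without mouse 13 (-0.70 ± 0.18, adjusted p = 0.0167). It missed the threshold without WT control mouse 832 or WT Pio mouse 842 or 845 (adjusted p of 0.0502 to 0.0641).

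Igfals (chr17:24865997-24882010, plus strand) encodes the acid-labile subunit, which holds IGF1 and IGFBP3 in a long-lived serum complex. In WT mice it was at 88.5, 39.1, 65.9, 89.3 and 70.2 CPM in control, 76.1, 59.4, 54.3, 59.5 and 30.3 with Pio, 81.5, 101, 141, 157 and 155 on HFD, and 120.0, 94.7, 129, 102 and 96.7 on HFD-Pio. Both HFD groups were higher than the groups on control diet, and every HFD-Pio mouse was above every Pio mouse, as for Stat5b. The HFD effect was 0.85 ± 0.48 on the log2 scale without Pio and 0.96 ± 0.48 with it, which missed the threshold with all mice (edgeR adjusted p = 0.47 and 0.37). Without mouse 13 the SE of the same differences was smaller (0.83 ± 0.20, adjusted p = 0.0124, and 0.95 ± 0.20, adjusted p = 0.00471), and Igfals rose in both. The effect with Pio was also called by limma with sample weights and with each genotype fitted alone, and the effect without Pio by neither. The exact two-sided permutation test of HFD-Pio against Pio gave p = 0.00794 unadjusted, the smallest that 5 against 5 can give. WT control mouse 832, the lowest control, also had the highest summed level of 8 stellate and fibroblast markers, 707 CPM against 202 to 242 in its group mates, and the lowest Ghr and Igf1 of the 20 WT mice.

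In KO mice Igfals was at 112, 94.1, 109.6, 113 and 89.3 CPM in control, 59.8, 42.6, 927, 85.0 and 54.5 with Pio, 101, 112, 91.8, 62.1 and 101 on HFD, and 98.3, 88.9, 91.4, 114 and 101 on HFD-Pio. Without mouse 13, all 4 Pio mice were below all 5 control mice and all 5 HFD-Pio mice, separations that held for 7% and 4.16% of all genes. The log2 fold change with Pio on control diet was 1.17 ± 0.48 with mouse 13 and -0.76 ± 0.22 without it (edgeR adjusted p = 0.11 and 0.10), and that of HFD with Pio was -1.24 ± 0.48 and 0.70 ± 0.22 (adjusted p = 0.11 and 0.30). Neither passed edgeR's test, and the direction rested on mouse 13. Limma with sample weights, with all 40 mice, called both in the direction found without mouse 13 (-0.77, adjusted p = 0.00105, and 0.66, adjusted p = 0.0062). With mouse 13 kept and KO Pio mouse 11, 12, 14 or 15 left out, both were called in the direction of mouse 13, at adjusted p from 0.0250 and from 0.0239. The KO minus WT difference in the HFD effect without Pio was -0.96 ± 0.29 without mouse 13 and did not pass the test (adjusted p = 0.079).

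Igfbp3 (chr11:7206086-7213923, minus strand), the main serum carrier of IGF1, is made in liver chiefly by non-parenchymal cells. Its level ranged from 10.6 to 30.2 CPM over the 40 mice. The WT group means were 15.4 ± 7.78, 19.6 ± 3.77, 16.2 ± 6.16 and 19.9 ± 7.41 CPM (SD, n = 5) for control, Pio, HFD and HFD-Pio, and those of KO mice were 17.4 ± 5.56, 19.0 ± 6.12, 15.7 ± 2.96 and 16.7 ± 4.00 CPM. All groups overlapped, and the largest log2 fold change within genotype was 0.35 ± 0.27, for the WT Pio and control groups (edgeR adjusted p = 0.55), which limma with sample weights called (0.65, adjusted p = 0.0202). Single high mice set much of this spread, among them WT control mouse 832 at 29.2 CPM, the mouse with the high stellate markers, and WT HFD mouse 827 at 26.8 CPM, whose stellate and fibroblast markers summed to 316 CPM against 193 to 215 in its group mates. The part of these cells in the Igfbp3 values was not tested.

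Cux2 (chr5:121856366-122050102, minus strand), a female-biased repressor that male liver is known to express at low level, was near the detection limit in all mice but one. It ranged from 0.181 to 0.951 CPM in WT mice and from 0.357 to 2.80 CPM in KO mice other than mouse 13, which had 420.1 CPM from 11291 counts. The edgeR log2 fold changes of 6.86 with Pio on control diet (adjusted p = 0.00427) and -6.80 with HFD in the presence of Pio (adjusted p = 0.00984) in KO mice rested on that liver, and limma with sample weights called neither (0.82 and -0.54, adjusted p = 0.13 and 0.50). Without it Cux2 was too low to be tested.

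Mouse 13 lay outside the range of the other 39 for 4 of the 10 members. Igf1 was at 190.4 CPM, below all 39, while Igfals, Socs2 and Cux2 were above all 39, at 15.3, 18.4 and 337 times the mean of the other 4 KO Pio mice. Bcl6 was at 15.2 CPM, below 38 of 39, and Cish at 41.4 CPM was 8.49 times that mean. Ghr (672 CPM), Stat5a (18.5 CPM), Stat5b (86.9 CPM) and Igfbp3 (28.3 CPM) stayed within the range of the others. The 24 male-biased liver genes summed to 1908 CPM against 4295 to 28385 in the others, and 4 Y-linked genes to 23.1 CPM against 48.3 to 179, with Xist at 0.0744 CPM. Beside the low hepatocyte and high immediate early levels given above, 8 endothelial markers summed to 550.2 CPM (179 to 432 in the others) and 5 cholangiocyte markers to 73.1 CPM (10.4 to 64.6), both above all 39. The 10 pancreatic acinar markers summed to 152 CPM, 13.3 times the median of the others but within their range of 1.78 to 856 CPM, whose top was a KO HFD mouse. The part of these cells in the values was not tested.

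Other genes of the pathway were read from 4 lists. Of 25 genes of GH receptor signalling, all tested, 0 passed the test by edgeR with all mice in the WT comparisons. Without mouse 13, 1 fell with Pio on control diet (Sh2b2, an adaptor of JAK2, -0.62 ± 0.21, adjusted p = 0.0450), 4% of the list against 15.6% of all genes. With Pio on HFD 3 fell and 0 rose, 12% of the list against 11.6% of all genes. These were Onecut1, a GH-responsive transcription factor (-2.37 ± 0.69, adjusted p = 0.0246), and the adaptors Grb2 (-0.48 ± 0.13, adjusted p = 0.0207) and Grb14 (-0.40 ± 0.11, adjusted p = 0.0232). Onecut1 was at 30.8 to 249 CPM on HFD and 9.98 to 47.5 CPM on HFD-Pio, and it fell also with HFD in the presence of Pio (-2.73 ± 0.69, adjusted p = 0.0140). The median log2 fold change of the list with Pio on HFD was -0.18 without mouse 13, against -0.00017 over all genes. With HFD alone Grb2 rose (0.42 ± 0.13, adjusted p = 0.0488) and Socs5, a SOCS-family gene, fell (-0.53 ± 0.15, adjusted p = 0.0276), 8% of the list against 6.55% of all genes. Grb2 spread widely on HFD, at 34.6 to 79.4 CPM (45.4 ± 19.2, SD, n = 5). It was at 30.2 to 38.4 CPM in control and 29.4 to 35.2 CPM on HFD-Pio, which both overlap the HFD range. The part of the highest HFD mouse in both Grb2 calls was not tested. In KO mice 3 of 25 rose with Pio on control diet (Socs1, Irs2 and Sh2b2, by 2.22, 1.66 and 1.64), 12% of the list against 9.01% of all genes. Without mouse 13, 0 were called, against 0.512% of all genes.

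Of 17 genes of the IGF system, 12 were tested, and 0 passed the test in WT mice with all 40. Without mouse 13, 2 of 12 were called in each WT comparison of Pio, 16.7% of the list against 15.6% of all genes on control diet and 11.6% on HFD. Insr, the insulin receptor, rose with Pio on control diet (0.36 ± 0.11, edgeR adjusted p = 0.0181) and on HFD (0.34 ± 0.11, adjusted p = 0.0351), from 112 ± 12.3 to 142 ± 13.1 CPM and from 114 ± 16.3 to 142 ± 22.9 CPM (SD, n = 5). Igfbp5 rose with Pio on control diet (0.97 ± 0.30, adjusted p = 0.0261) and fell with HFD in the presence of Pio (-0.96 ± 0.30, adjusted p = 0.0416). Igfbp4, an abundant hepatic IGF carrier, rose with HFD (0.62 ± 0.14, adjusted p = 0.00808) and fell with Pio on HFD (-0.41 ± 0.14, adjusted p = 0.0498), with WT HFD mice at 2217, 2213, 2565, 4477 and 2676 CPM and HFD-Pio mice at 1879 to 2327 CPM. The highest, HFD mouse 829, also had a core clock sum of 1521 CPM against 517 to 897 in its group mates and a cholangiocyte sum of 64.6 CPM against 23.5 to 31.3, whose part was not tested. Igfbp4 was at 1632 to 2139 CPM in WT control mice. With KO Pio mouse 13 (7922 CPM) and all others kept, leaving out mouse 829 took the HFD effect on Igfbp4 from 0.63 ± 0.31 to 0.40 ± 0.31. The Pio effect on HFD went from -0.43 ± 0.31 to -0.21 ± 0.31. None of these passed the test with mouse 829 in or out. They therefore cannot show whether the calls made without mouse 13 rest on mouse 829. In KO mice 1 gene, Igfbp2, fell with HFD in the presence of Pio (-1.13 ± 0.33, adjusted p = 0.0434), 8.33% of the list against 4.96% of all genes, and 0 were called without mouse 13.

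Sex-biased genes are a readout of the GH pulse pattern in liver. Of 24 male-biased genes 23 were tested and 0 were called in WT mice with all 40. Without mouse 13, 1 rose and 3 fell with Pio on control diet, 17.4% of the list against 15.6% of all genes. Cyp4a12a, a fatty acid hydroxylase, rose by 1.01 ± 0.34 (edgeR adjusted p = 0.0357), and Serpina1e, Keg1 and the complement gene C8a fell by 1.53, 0.65 and 0.58. On HFD, also without mouse 13, C8b and C8a fell with Pio by 0.66 and 0.63, 8.7% of the list against 11.6% of all genes. With HFD in the presence of Pio, again without mouse 13, Cyp4a12b and Cyp4a12a fell by 1.63 and 1.05, 8.7% of the list against 8.68% of all genes. The median log2 fold change of the list with Pio on control diet was -0.43 without mouse 13, against -0.01 over all genes. In KO mice only Selenbp2 was called, higher by 2.91 ± 0.81 with HFD in the presence of Pio (adjusted p = 0.0410), and not without mouse 13. That was 4.35% of the list against 4.96% of all genes.

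Of 25 female-biased genes 14 were tested. With Pio on control diet in WT mice 3 rose and 0 fell with all 40, 21.4% of the list. Over all genes 316 rose and 190 fell, or 3.91%. Abcd2, a peroxisomal transporter, went from 3.58 to 15.3 CPM in control to 20.6 to 36.6 CPM with Pio (1.78 ± 0.37, edgeR adjusted p = 0.00386). Tox, a transcription factor, rose by 1.71 ± 0.39 (adjusted p = 0.00964) and Fmo2 by 0.97 ± 0.28 (adjusted p = 0.0422). Without mouse 13, 4 rose and 1 fell, 35.7% of the list against 15.6% of all genes. Among them were Cyp17a1 (1.81 ± 0.55, adjusted p = 0.0236) and, downward, Prom1 (-1.56 ± 0.51, adjusted p = 0.0340). Prom1 was at very low levels that overlap, 0.163 to 0.645 CPM with Pio and 0.193 to 3.95 CPM in control. The median of the list was 0.72 with all mice, against -0.02 over all genes. With Pio on HFD in WT mice 0 were called with all mice, against 1.08% of all genes. Without mouse 13, 0 rose and 1 fell, Cyp39a1 (-0.75 ± 0.24, edgeR adjusted p = 0.0343), 7.14% of the list against 11.6% of all genes. The median of the list with Pio on HFD was 0.31 with all mice, against -0.02 over all genes. Hao2 rose with HFD both without Pio (4.83 ± 0.88, adjusted p = 0.00237) and with Pio (3.16 ± 0.70, adjusted p = 0.0179), at very low levels. These calls were 7.14% of the list in each, against 1.31% and 1.22% of all genes. Without Pio it was at 0 to 0.116 CPM in control and 0.0458 to 3.75 CPM on HFD, which overlap. With Pio it was at 0.0258 to 0.364 CPM on control diet and 0.473 to 2.03 CPM on HFD. The KO minus WT difference in the Pio effect on control diet called 4 of 14, all lower, 28.6% of the list against 7.87% of all genes. Without mouse 13 it called 3, 21.4% against 5.78%. Within KO mice Pio on control diet gave 3.70 for Cyp2a4 and -4.38 for Cyp2b9, 14.3% of the list against 9.01% of all genes. HFD in the presence of Pio gave -5.38 for Cyp2a4, 7.14% against 4.96%, and 0 of these were called without mouse 13.

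Finally, the genes whose pattern was most like that of each member were ranked among 9281 genes by Pearson's r of log2 CPM, centred on the genotype mean, over the 39 mice without mouse 13. These r are descriptions, since the mice share treatments. The closest to Cish were Rgs3 (r = 0.84), Onecut1 (0.82) and Foxq1 (0.79), and the most opposite was Bcl6 (-0.81). Socs2 had Cish as its closest gene (0.78), followed by 1700018L02Rik (0.76) and Rgs3 (0.71). Bcl6 was best matched by Gpr17 (0.62), Sbk1 (0.61) and Fam160b1 (0.61), and Cish was its most opposite gene. Ghr went with Cyp2c50 (0.88), Slco1b2 (0.88) and Sult2a8 (0.87), and Igfals with Hagh (0.92), Gpx1 (0.91) and Creb3l3 (0.89). The lists for Igf1 (B2m 0.72, F9 0.71, Arid5b 0.70), Stat5b (Hdac5 0.78, Dirc2 0.76, Alas2 0.76) and Stat5a (Fpgs 0.68, Pitpnm2 0.66, Sh3bp2 0.66) held no other member. For Igfbp3 they were Sparc (0.79), Lyve1 (0.77) and Ccdc80 (0.76), of which Lyve1 is in the endothelial marker list. For Cux2, at its low level, the 3 highest r were 0.50, 0.47 and 0.47 (Zfand6, Eif2b1 and Cyp4a10).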

How the data were processed

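Liver poly-A RNA of 40 mice was sequenced. Per the submitters' processing notes the authors aligned reads to GRCm38 with STAR 2.0.4b and counted them per gene with featureCounts 1.4.5 (Subread), and the deposited values are raw read counts, 1 table per genotype. The 40594 genes in both tables were used (96 were in the WT table only), and 355 rRNA genes were removed. A gene was kept if 5 or more mice reached 1 CPM (12942 genes, or 12895 without mouse 13). Counts were scaled by TMM and tested with edgeR 4.0.16 (R 4.3.3), in 1 robust quasi-likelihood model of 8 group means, with Benjamini-Hochberg adjustment over all genes tested and calls at an adjusted p of at most 0.05. Errors of fold changes are SEs. SDs, correlations and exact tests used log2 CPM with a prior count of 2 (Python 3.11.15). Exact tests were two-sided, and the smallest p was 0.00794 for 5 against 5. Gene positions and exon lengths came from a GRCm38 annotation, and RPKM from TMM-scaled CPM. The model was also run on simulated counts in which no library stood apart, so that run does not bear on the effect of mouse 13.

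Named genes were the 10 members, up to 3 called genes with the largest fold change per list, two-group comparison and direction, and per member the 3 genes with the highest r at a mean of at least 5 CPM. The members and lists were chosen with earlier results of these data known. Alternatives were DESeq2 1.42.0, limma 3.58.1 with sample weights (after the study's own method), RLE scaling, no filter, rRNA genes kept, each genotype alone, and each mouse left out. Nothing says whether livers were processed on separate days, so p-values measure the spread between these mice.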

Additional observations from a re-analysis of the deposited data

Results flagged for a closer look

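In 80 groups of values (10 genes in 8 groups of 5), a mouse was looked for whose gap to the nearest other exceeded Dixon's 95% critical value. Chance gives that in about 5% of groups of normally distributed values. The search used CPM, which were not tested for that distribution, so the 5% is no background for the count. The criterion was met in 12 groups, of which 4 were in KO Pio mouse 13. That mouse had 927 CPM of Igfals (42.6 to 85.0 in its group mates), 157 CPM of Socs2 (3.90 to 17.6), 41.4 CPM of Cish (2.66 to 9.05) and 420.1 CPM of Cux2 (0.611 to 2.80).

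Igfbp3 stood apart in 4 mice: WT control mouse 832 at 29.2 CPM (10.7 to 13.7 in the others), WT HFD mouse 827 at 26.8 CPM (12.0 to 15.7), KO HFD mouse 9 at 20.9 CPM (13.8 to 14.6) and KO HFD-Pio mouse 16 at 23.8 CPM (14.1 to 15.3). Each of these mice also had the highest summed stellate and fibroblast markers of its group, and the part of those cells was not tested. KO HFD mouse 9 was also apart for Ghr, at 403 CPM against 669 to 705. The remaining 3 were Socs2 in KO HFD-Pio mouse 20 (66.3 CPM against 5.23 to 9.41), Cish in WT HFD-Pio mouse 838 (30.3 CPM against 2.93 to 8.66) and Bcl6 in WT control mouse 835 (129 CPM against 18.7 to 36.3).

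Effects that differed between groups by an interaction term in edgeR were those of Pio on control diet between KO and WT for Igf1 (-0.91 on the log2 scale), Stat5b (0.65) and Cux2 (6.70), the last from mouse 13, and that of Pio between diets in WT mice for Igf1 without mouse 13 (-0.62).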

How the results depend on the processing

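Counts of members called changed by more than 1.5 times under these alternatives. Limma with sample weights called 3 for Pio on control diet and 3 for HFD with Pio in WT mice, 1 for HFD without Pio and 2 for HFD with Pio in KO mice, 1 for the diet dependence of Pio in each genotype, and 2 for the KO minus WT HFD effect with Pio. No filter gave 0 for the WT Pio and control groups and 1 for the KO minus WT difference in that effect, DESeq2 gave 1 for HFD without Pio in WT mice, and each genotype alone gave 1 for HFD with Pio in WT mice and 0 for both Pio on control diet and HFD with Pio in KO mice. The causes were not tested. The counts moved by no more than that with rRNA genes kept or RLE scaling.

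With each mouse left out in turn, counts ranged from 0 to 2 for Pio on control diet and for HFD without Pio in WT mice, 0 to 1 for HFD with Pio in WT mice and the diet dependence in WT mice, 0 to 5 for Pio on control diet and 0 to 3 for HFD with Pio in KO mice, 1 to 4 for the KO minus WT Pio effect on control diet and 0 to 3 for the KO minus WT HFD effect with Pio.

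Directions reversed for Igfals under limma with sample weights, to -0.77 (Pio on control diet, KO), 0.66 (HFD with Pio, KO), 0.72 (diet dependence, KO) and -0.28 (KO minus WT, Pio on control diet), and with single mice left out, where these ranged from -0.76 to 1.49, -1.54 to 0.70, -1.42 to 0.83 and -0.43 to 1.81. Socs2 in the KO minus WT HFD effect with Pio ranged from -1.12 to 2.41, and in the Pio effect on HFD in KO mice from -0.16 to 1.59. DESeq2 gave no adjusted p for Igfals or Cux2. No paired analysis was possible because no 2 groups share a mouse number. Depth limits Cux2, with 3 to 38 counts in WT mice.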
